A study of Mus musculus with 4 samples.

Results

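The basal level of 9 interferon-stimulated genes (Ifit1, Ifit2, Ifit3, Isg15, Oasl2, Stat2, Mx1, Rsad2 and Usp18) was examined in bone marrow pro-B cells for which the labels name no interferon or other stimulus. The genes were chosen by name, and the value of each is that of every probe set (the group of array probes that reports on 1 transcript) whose only gene symbol is that gene. This gave 1 probe set for each of 8 genes, out of 34760 probe sets in the whole table, 21640 of which have 1 gene symbol (19937 genes). Isg15, which encodes a ubiquitin-like protein that is attached to other proteins during antiviral responses, has no value here because its probe set also carries the symbol Gm9706. RNA came from B220+cKit+ cells of wild type C57BL/6 mice, measured on 4 Affymetrix Mouse Gene 1.0 ST arrays that form 1 group, replicates 1 to 4, so no comparison between groups was possible. Age, sex and treatment are not stated in the labels, nor whether each replicate is a separate animal, so the spread between replicates may in part be technical. Arrays of the Emu-NKX2-3 transgenic mice named in the title of the study were not analysed here.

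Interferons are secreted signals of infection. Type I interferons bind a receptor made of IFNAR1 and IFNAR2, whose kinases JAK1 and TYK2 phosphorylate STAT2, which acts with IRF9 on a short DNA element, the interferon-stimulated response element, in front of a large group of genes. Many of these genes are also transcribed at a low, tonic level without infection. In the marrow, interferons act on stem cells and on early B-lineage cells.

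To show the element in these genes, the letters GAAANNGAAA, a common core of it, or their complement TTTCNNTTTC, were looked for in RefSeq promoter windows (build GRCm38.p6), each running from 250 bases before to 50 bases after an annotated start of transcription. Of the 7 listed genes with a window in the reference, 5 had a match, against 3.99% of 27025 genes and 3.44% of 32851 windows in the whole reference. The letters were not particular to these genes. In the pathway lists described below, 22 of 44 other interferon-stimulated genes and 11 of 17 type I interferon ligands had a match. So did 3 of 13 nucleic acid sensors and adaptors and 2 of 7 negative regulators. Receptors, signal transduction and ISG15 conjugation had 0 of 5, 0 of 8 and 0 of 4. Ifit1 and Ifit3 had 2 matches each, Stat2 and Rsad2 had 1 each, and Isg15 had 3 that overlap one another. The letters were not found in either window of Ifit2 or in that of Oasl2. Mx1 and Usp18 were without a window in the reference used. A match is a description of these letters, and no binding was measured. The matched stretches are printed 5′ to 3′ on the strand of the gene, with the matches in capitals, because they hold the element in the 5 genes where its letters were found.
Ifit1, chr19:34640770-34640828, plus strand: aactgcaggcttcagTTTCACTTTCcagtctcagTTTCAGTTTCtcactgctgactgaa
Ifit3, chr19:34583358-34583431, plus strand: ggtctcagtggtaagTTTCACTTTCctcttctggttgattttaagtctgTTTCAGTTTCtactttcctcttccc
Isg15, chr4:156200860-156200911, minus strand: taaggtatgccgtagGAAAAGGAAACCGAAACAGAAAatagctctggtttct
Stat2, chr10:128270261-128270300, plus strand: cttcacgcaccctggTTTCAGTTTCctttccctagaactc
Rsad2, chr12:26456548-26456587, minus strand: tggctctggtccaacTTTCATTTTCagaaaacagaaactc

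The matches of Ifit1 began 104 and 85 bases before the start, and those of Ifit3 began 156 and 122 bases before it. In Isg15 the first match began 78 bases before the start. Those of Rsad2 and Stat2 began 120 and 222 bases before it, so the Stat2 match was the farthest from the start among these genes.

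**Figure D1:**
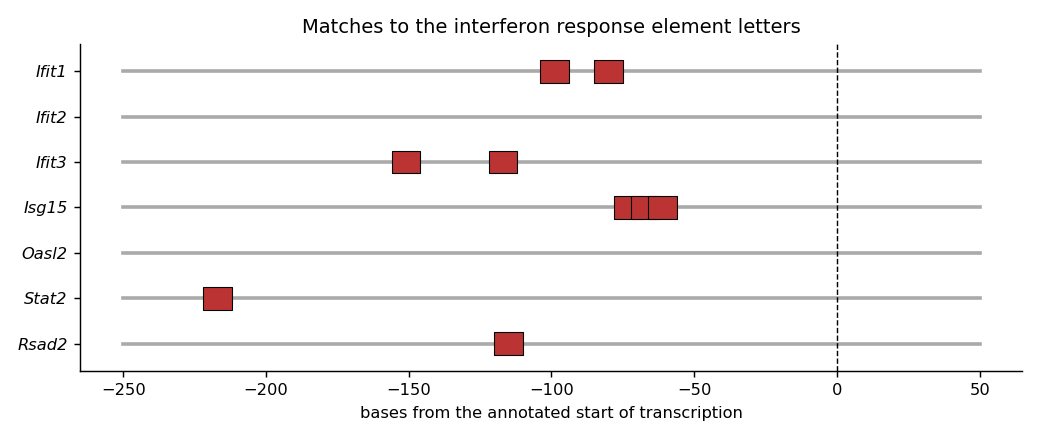
Position of each match to the letters (red boxes) along the promoter window of 7 genes (grey bars), in bases from the annotated start of transcription (dashed line at 0); the 2 windows of Ifit2 are drawn as 1 bar. The 5 genes with a match carry it between 222 and 66 bases before the start (counted to the first base of the match), and Ifit2 and Oasl2 have none.

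The values are log2 intensities, with an array median of 7.31 to 7.35, and the number of arrays limits the precision. Olfactory, vomeronasal and taste receptor genes, with 1246 probe sets, were treated as silent in blood cells. The background line of each array was their 95th percentile, and a gene counted as above background only if every one of the 4 arrays passed its own line. Of these receptor probe sets 3.61% themselves passed. Replicate 3 stood apart in sex-linked RNA, since Xist, the RNA of X-chromosome inactivation, lay at 5.48 there and at 13.04 to 13.17 elsewhere. The Y-linked genes Eif2s3y, Uty and Kdm5d lay at 10.05, 9.31 and 9.10 there and below the line on the other arrays. By these genes replicate 3 was male and the others female, so this replicate and the others came from different animals. Differences on replicate 3 cannot be told apart from sex. Early B-cell markers were above background in 13 of 14 cases. The exception, Rag2, passed on 3 of 4 arrays. All 13 granulocyte and monocyte markers, all 7 erythroid markers and all 10 plasmacytoid dendritic cell markers with a value passed as well. Over all single-symbol probe sets 63.5% passed. The values of some of these other markers were high. Mpo, Elane, Lyz2 and Car1 had means of 13.82, 13.68, 13.67 and 13.74, over the 12.64 of Cd79b, the highest early B-cell marker. Others lay lower, down to 7.43 for Pacsin1. Of the T and NK cell markers 8 of 11 passed. Cd4, Cd8a and Cd3g did so by margins of only 0.25, 0.21 and 0.26 on their lowest array. The lowest margins of Klrb1c, Cd3e, Prf1, Ncr1 and Nkg7 were 0.43, 0.74, 0.82, 1.84 and 6.11. Which cells gave the signal of the interferon-stimulated genes was not measured, and fewer cells of a type cannot be told apart from less RNA per cell.

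All 8 genes with a value were above background, beside 63.5% of all single-symbol probe sets. Each of their values lay more than 1 log2 unit over the line of its array, the smallest margin being 1.06, for Mx1 on replicate 2. By limma's one-sided test of the value over the line, the Benjamini-Hochberg adjusted p over all probe sets ran from 8.52e-09 for Stat2 to 2.28e-05 for Mx1; this test called 60.2% of all probe sets. Over the arrays the genes differed in steadiness, with SDs from 0.033 to 0.32 on the log2 scale. Their median SD was 0.23, against 0.11 for the 13744 single-symbol probe sets above background, and 6 of 8 had an SD over that median. Without replicate 3 the median SD of the genes was 0.23 as well. Without replicate 4 it fell to 0.16, against 0.11 for all single-symbol probe sets above background, so the wider spread rested in large part on that array.

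**Figure D2:**
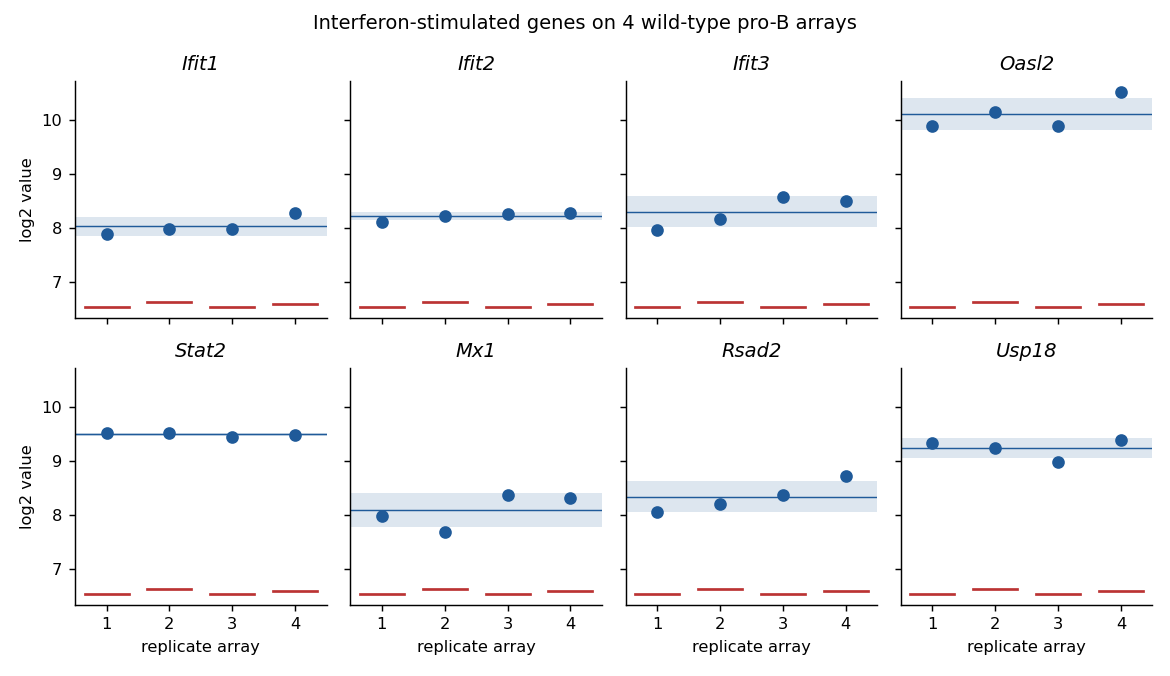
Log2 value (vertical axis) of the 8 genes on the replicate arrays 1 to 4 (horizontal axis). Points are arrays, the blue line is the mean, the shaded band is 1 SD on each side (n = 4) and the red bars are the background line of each array; every point lies above the bars, and Stat2 has the narrowest band (SD 0.033).

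The IFIT proteins have tetratricopeptide repeats, and several bind foreign RNA and block its translation. In the reference annotation their genes lie in 1 cluster on chromosome 19. Ifit1, whose product binds RNA ends that lack the cap methylation of host mRNA, had log2 values of 7.88, 7.97, 7.99 and 8.27 on replicates 1 to 4, with a mean of 8.03 ± 0.17 (SD, n = 4). Replicate 4 was high and the other replicates lay close together. Ifit2, a relative linked to translation block and apoptosis, had values of 8.11, 8.22, 8.25 and 8.27 and a mean of 8.21 ± 0.07 (SD, n = 4). Its arrays differed by no more than 1.12-fold, which made it one of the steadiest genes of the set. Ifit3, a partner of other IFIT proteins, had values of 7.97, 8.16, 8.57 and 8.49, with a mean of 8.30 ± 0.28 (SD, n = 4). Here replicates 3 and 4 were high and replicate 1 was low, a range of 1.52-fold. The neighbouring paralogue Ifit3b, with a probe set of its own, was below the line on every array, at 4.61, 4.78, 5.19 and 4.61; whether the probes of the Ifit genes separate these related transcripts fully was not tested.

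Among the antiviral enzymes, Oasl2, an oligoadenylate synthetase-like protein with ubiquitin-like domains, had log2 values of 9.89, 10.15, 9.88 and 10.52 and a mean of 10.11 ± 0.30 (SD, n = 4). Replicate 4 was the highest, 1.55-fold over replicate 1, while replicates 1 and 3 were nearly equal. Rsad2 encodes viperin, a radical SAM enzyme that makes a chain-terminating nucleotide. Its values were 8.05, 8.20, 8.37 and 8.72, with a mean of 8.34 ± 0.29 (SD, n = 4), and replicate 4 lay 1.60-fold over replicate 1. Mx1, a dynamin-like GTPase that restricts influenza virus and that C57BL/6 mice carry as an allele with coding exons deleted, had values of 7.97, 7.69, 8.37 and 8.32 and a mean of 8.09 ± 0.32 (SD, n = 4). It had the widest spread of the 8 genes, with replicate 2 low and replicates 3 and 4 high, a range of 1.61-fold. The probe set reports RNA from the locus, and protein was not measured.

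Stat2, the signalling component that carries the response to the promoters, had log2 values of 9.51, 9.52, 9.45 and 9.49, a mean of 9.49 ± 0.03 (SD, n = 4). Its arrays differed by 1.05-fold at most, and its SD was below the median SD of all probe sets above background. Usp18, which removes ISG15 from proteins and blocks signalling at the receptor, had values of 9.33, 9.25, 8.98 and 9.39 and a mean of 9.24 ± 0.18 (SD, n = 4). It was low on replicate 3, and replicate 4 exceeded replicate 1 by only 1.05-fold, unlike Rsad2 and Oasl2.

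Replicate 4 gave the highest value for 5 of 8 genes (Ifit1, Ifit2, Oasl2, Rsad2 and Usp18), beside 19.3% of single-symbol probe sets above background. Replicate 1 gave the lowest value for 4 of 8 (Ifit1, Ifit2, Ifit3 and Rsad2), beside 28.9%. The shift of an array is its log2 value less the average over the remaining arrays. Its median over the 8 genes was 0.28 on replicate 4, with 7 of 8 higher. All single-symbol probe sets above background had a median of -0.01 on replicate 4, with 6314 of 13744 higher. Shifts on that array ran from -0.01 for Stat2 and 0.08 for Ifit2 to 0.52 for Rsad2 and 0.55 for Oasl2. On replicate 1 the median shift was -0.17, with 6 of 8 lower. All single-symbol probe sets above background had 0.01 on it, with 6579 of 13744 lower. The median shifts on replicates 2 and 3 were -0.03 and -0.003, but single genes moved on them, Mx1 by -0.54 on replicate 2 and Usp18 by -0.34 on replicate 3. The genes thus moved together only in part, since Mx1 and Ifit3 were highest on replicate 3, where Oasl2 and Usp18 were lowest. The shift on replicate 4 was 0.39 without replicate 3 and 0.29 without replicate 1. That on replicate 1 rested partly on single arrays, at -0.11 without replicate 4 and -0.28 without replicate 2. With 4 arrays of 1 group no test of these shifts was made.

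**Figure D3:**
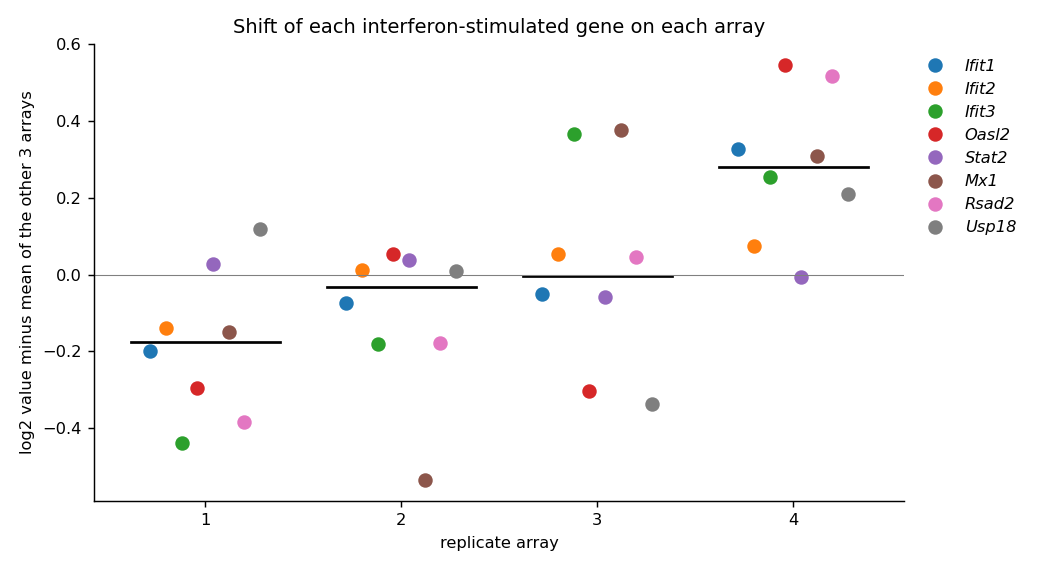
Shift of the 8 genes (coloured points), as log2 value minus the average over the remaining 3 arrays (vertical axis), on the replicate arrays 1 to 4 (horizontal axis); black bars are medians over the 8 genes. The bars lie at -0.17, -0.03, -0.003 and 0.28, and Stat2 stays near 0 on every array.

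Cell type markers also differed between these arrays. On replicate 4 the median shift was -0.58 for early B-cell markers, with 10 of 13 lower. For markers of plasmacytoid dendritic cells, a B220+ cell type known as a strong interferon producer, it was -0.31, with 10 of 10 lower. Shifts within that group ran from -0.02 for Siglech and Bst2, close to no change, to -0.91 for Spib. For granulocyte and monocyte markers the median shift on replicate 4 was 0.27, with 10 of 13 higher. These markers were also high on replicate 3, at 0.20 with 11 of 13 higher, and 7 were highest there against 5 on replicate 4. Replicate 2 stood apart for them, at -0.41 with 12 of 13 lower and 10 lowest there. For erythroid markers the median shift on replicate 4 was 0.29, with 7 of 7 higher. The erythroid markers had median shifts of 0.38 on replicate 2 and 0.34 on replicate 3 too, and 0 of 7 were highest on replicate 4, so replicate 1, at -1.14, was the array that stood apart for them. Replicate 1 gave 0.76 for the early B-cell markers. Summed over their members above background as unlogged values, the early B-cell markers ranged from 21600 on replicate 4 to 40470 on replicate 1 and the erythroid markers from 11680 on replicate 1 to 22540 on replicate 2. The sums ran from 66180 to 82120 for the granulocyte and monocyte markers and from 10990 to 15430 for the plasmacytoid dendritic cell markers. Housekeeping genes had a median shift of 0.01 on replicate 4 and -0.03 on replicate 1. The part of these cell populations in the shifts of the interferon-stimulated genes was not tested.

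The other genes of the pathway were taken from 7 lists with 119 entries. Of these, 103 had a probe set of their own and 88 were above background. The share over all single-symbol probe sets was 63.5%, and it stands beside this count and those of the single lists below. Of the type I interferon ligands, 2 of 13 were above background, Ifna5 at 8.03 ± 0.17 (SD, n = 4) and Ifna14 at 6.93, 7.02, 6.86 and 7.18. The count was 1 at the 99th percentile of the receptor genes or at the array median, and 3 at the 90th percentile. Ifnb1, the ligand made first in many infected cells, was below the line on every array, at 5.50, 5.19, 5.64 and 5.41. Ifna4 was below it too, at 5.89, 5.88, 5.50 and 5.92, and so were Ifna9, at 6.38, 6.36, 6.09 and 6.08, and Ifna11, with a mean of 3.68 ± 0.13 (SD, n = 4). Ifna2, at 6.48, 6.88, 6.64 and 6.17, passed the line on 2 of 4 arrays. Interferon alpha genes are near-identical copies, and several of them share probe sets, so a value under 1 symbol is uncertain.

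All 6 receptor genes were above background. Ifnar1 and Ifnar2, the chains of the type I receptor, had mean log2 values of 10.16 ± 0.19 and 11.70 ± 0.12 (SD, n = 4). Ifngr1 and Ifngr2, the chains of the interferon gamma receptor, had 12.08 ± 0.15 and 11.64 ± 0.17 (SD, n = 4). Ifnlr1, the specific chain of the interferon lambda receptor, was nearer the line, at 7.32, 7.15, 7.33 and 7.33. Il10rb, the chain that this receptor shares with that of interleukin-10, had a mean of 10.79 ± 0.10 (SD, n = 4). The receptor genes were lowest on replicate 2 in 6 of 6 cases, beside 3211 of 13744 single-symbol probe sets above background. Median shift of the receptor genes on replicate 4 was 0.01, with 3 higher and 3 lower, from 0.24 for Ifngr1 to -0.14 for Ifnar1.

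Of the signal transduction genes that were measured, 8 of 8 lay above background. The kinase genes Jak1 and Tyk2 had mean log2 values of 11.56 ± 0.08 and 10.07 ± 0.09 (SD, n = 4). Jak2, a kinase of the interferon gamma receptor, had a mean of 10.12 ± 0.05, and Stat3, a transcription factor of many cytokine receptors, one of 10.99 ± 0.11 (SD, n = 4). Irf9, the DNA-binding partner of STAT2, had values of 10.13, 10.13, 9.89 and 10.17, and was low on replicate 3. Irf7, a factor that amplifies interferon production and is itself interferon-induced, had 9.10, 8.89, 9.03 and 9.19. The median SD of this list was 0.10 and its median shift on replicate 4 was 0.02, both smaller than those of the 8 genes. Irf1 has a further probe set that lay at 6.95 to 6.99, while the one with the highest mean gave 9.60 ± 0.19 (SD, n = 4).

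Of the negative regulators 9 of 9 were above background. Socs1, an inhibitor of JAK kinases induced by cytokines, had log2 values of 8.43, 7.91, 7.90 and 7.93, high on replicate 1. Socs3, a related inhibitor, had a mean of 8.03 ± 0.10 and Ptpn6, the phosphatase SHP-1, one of 11.30 ± 0.10 (SD, n = 4). A further Socs3 probe set, at 6.52, 6.62, 6.56 and 6.12, passed the line on only 1 of 4 arrays. The phosphatase genes Ptpn2 and Ptpn11 had means of 9.98 ± 0.05 and 10.18 ± 0.06 (SD, n = 4). A further Ptpn2 probe set was less steady, at 8.24, 7.90, 7.72 and 7.72. Pias1 and Pias4 encode SUMO ligases that inhibit STAT proteins. Pias1 had a mean of 11.28 ± 0.07 (SD, n = 4), and Pias4 had values of 9.07, 9.35, 9.06 and 8.99, high on replicate 2. Irf2, a repressor that competes with IRF1 for its DNA sites, had 11.05, 10.74, 10.92 and 10.80. Genes of ISG15 conjugation, which attach the product of Isg15 to its targets, were above background in 4 of 4 cases. The activating enzyme gene Uba7 had a mean of 8.56 ± 0.09, the conjugating enzyme gene Ube2l6 one of 9.69 ± 0.19 and the ligase gene Herc6 one of 9.12 ± 0.14 (SD, n = 4). Ube2l6 was low on replicate 1, at 9.41 against 9.74 to 9.81. Trim25, a ligase that accepts ISG15 and acts on RIG-I, had 10.15, 9.86, 9.97 and 10.05.

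All 17 nucleic acid sensors and adaptors were above background. Ifih1, the RNA sensor MDA5, had log2 values of 8.93, 9.26, 8.96 and 9.44, and Dhx58, the related LGP2, had 8.84, 9.11, 9.01 and 9.25. Both were highest on replicate 4 and lowest on replicate 1. Ddx58, the sensor RIG-I, had 9.80, 9.66, 9.62 and 9.58, and Tlr9, a DNA sensor, had 10.59, 10.24, 10.22 and 10.01. These were the other way round, highest on replicate 1 and lowest on replicate 4. Over the list the median shift on replicate 4 was 0.09, with 10 of 17 higher. Cgas, the cytosolic DNA sensor, had 7.78, 7.97, 8.03 and 8.05, and its adaptor Sting1 was steady at 11.47 ± 0.05 (SD, n = 4). Mavs, the mitochondrial adaptor of RIG-I and MDA5, had 10.10, 10.02, 9.95 and 9.76, lowest on replicate 4. Tlr3, a sensor of double-stranded RNA, was close to the line, at 6.71, 6.78, 6.98 and 7.19, with a smallest margin of 0.16.

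Among 46 other interferon-stimulated genes with a probe set, 42 were above background; Mx2, Ifi44l, Iigp1 and Ifit3b were not. Their median SD was 0.15 and their median shift on replicate 4 was 0.08, with 28 of 42 higher and 20 highest there. The oligoadenylate synthetase genes Oas1a, Oas1b, Oas2, Oas3 and Oasl1, relatives of Oasl2 singled out after their values were seen, were highest on replicate 4 in 5 of 5 cases, with a median shift of 0.36. Oas2 had values of 8.94, 8.94, 8.91 and 9.42, and Oas1a had 8.36, 8.66, 7.91 and 8.77. Eif2ak2, the RNA-activated kinase PKR, likewise named after its values were seen, had 9.25, 9.51, 9.27 and 9.85. These genes followed Oasl2 in their high value on replicate 4, whereas Ifi35 had 9.37, 9.37, 9.15 and 9.23 and Ifi27l2a was highest on replicate 1, at 9.04 against 8.67 to 8.79.

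The widest spread in this list was that of Isg20, an exonuclease, with log2 values of 9.35, 10.82, 10.53 and 10.62, low on replicate 1. Ifitm1, an antiviral membrane protein, had 9.47, 9.52, 10.07 and 10.39, and a further probe set of the gene had 8.14, 8.40, 8.90 and 9.59. Lgals3bp, a secreted glycoprotein, had 10.47, 11.39, 10.87 and 11.24. Bst2, or tetherin, which retains budding virus and marks plasmacytoid dendritic cells, was steady at 8.62 ± 0.10 (SD, n = 4), and Xaf1 had a mean of 8.61 ± 0.15 (SD, n = 4).

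**Figure D4:**
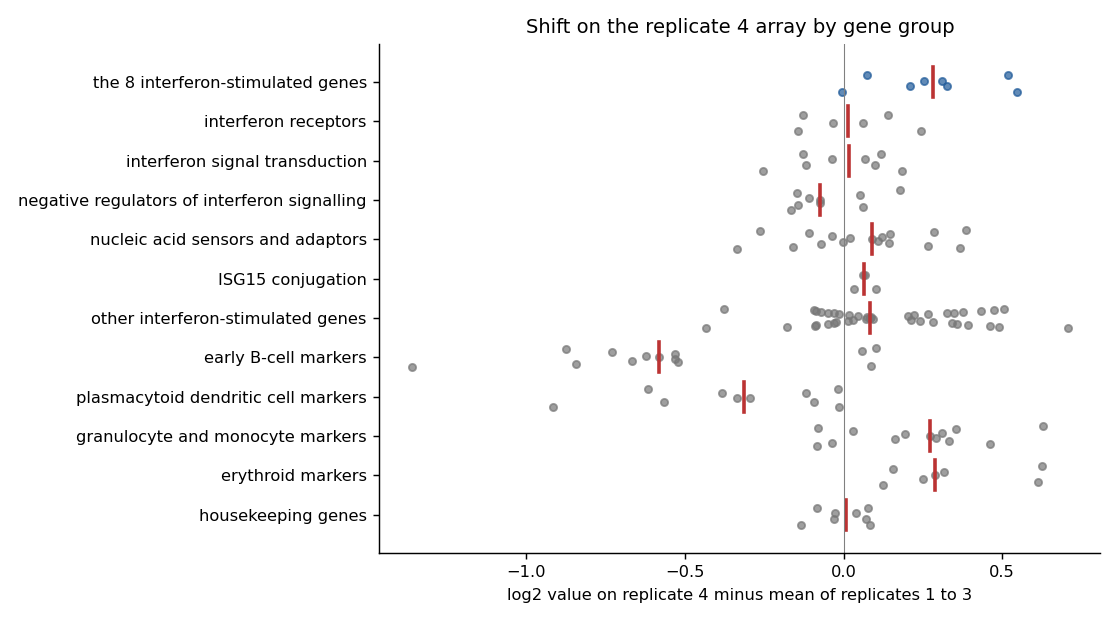
Log2 value on replicate 4 minus the mean of replicates 1 to 3 (horizontal axis) for genes above background in 12 groups (vertical axis); points are genes and red bars are medians. The bar of the 8 interferon-stimulated genes lies at 0.28, those of the receptors and of signal transduction at 0.01 and 0.02, that of the early B-cell markers at -0.58 and that of the housekeeping genes at 0.01.

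The genes most like the set were sought by the distance between a gene's deviations from its own mean over the 4 arrays and the median deviations of the 8 genes, which were -0.13, -0.02, -0.002 and 0.21 on replicates 1 to 4. The nearest were Cmtm5, Olfr1347, Atad5, Tspoap1 and Sstr3, at distances of 0.029 to 0.038 log2 units. Cmtm5, Olfr1347 and Sstr3 were close to the line, with lowest margins of 0.42, 0.47 and 0.19, while those of Atad5 and Tspoap1 were 2.83 and 1.51. Olfr1347 belongs to the olfactory receptors that set the background line, and none of the nearest genes was in the pathway lists. Of the 8 genes themselves Ifit1 was closest to the median profile, at 0.06, and Mx1 farthest, at 0.47. Of 13736 probe sets compared, 39 lay as near to that profile as Ifit1 did.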

How the data were processed

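Each deposited value is a log2 intensity of 1 probe set. The methods and the submitters' processing notes name RMA for background correction and normalization, followed by a filter on low-expression probe sets of unstated threshold. Every probe set of the table (34760) was kept, and 0 columns lacked a sample. Probe sets were named from the platform annotation (21640 with 1 symbol, 1321 with several, 11799 with none listed), of which 21553 matched the reference gene table by identifier. No genome build is named for the values, so no coordinates are given for probe sets. A listed gene with several probe sets was given by the one with the highest mean.

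Named genes were the 9 chosen genes, the first 6 entries of each pathway list with a probe set, the 3 entries with the largest range among those above background, and the 5 nearest genes; others were named after their values were seen. The genes and lists were chosen with earlier results of these data known. limma's test was tried on simulated data with known margins over the line. The shifts were tried on simulated data too, but an added shift is recovered there by arithmetic, so only the code was checked. Alternatives were other background lines (99th and 90th percentile, 211 vomeronasal and taste receptors alone, the array median), 3 of 4 arrays, limma's test, quantile normalization, cyclic loess, median centring, no filter on background, the range instead of the SD, and omission of 1 array at a time. Computations used Python 3.11.15 with numpy 2.4.6, pandas 2.3.3 and matplotlib 3.10.9, and limma 3.58.1 in R 4.3.3.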

Additional observations from a re-analysis of the deposited data

Results flagged for a closer look

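Of 62 genes looked at, 5 had 1 array far from the others by Dixon's ratio, where chance gives about 1 in 20, or 3.1 genes. None of the 8 interferon-stimulated genes with a value was among them. Socs1 was high on replicate 1, at a log2 value of 8.43 against a mean of 7.91 on the other arrays. Irf9 was low on replicate 3, at 9.89 against 10.14. Ifnlr1 was low on replicate 2, at 7.15 against 7.32. Ifna4 at 5.50 against 5.90 on replicate 3 and Ifi44l at 6.08 against 5.91 on replicate 1 also stood apart, and both lay below the background line on every array.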

How the results depend on the processing

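No paired analysis was possible because there is only 1 group of samples. All 8 genes stayed above background under the 13 alternatives run for that count, and the pathway genes above background numbered 84 to 90. The median spread of the 8 genes was 0.51 when taken as the range, a wider measure than the SD by construction, and 0.16 to 0.23 with 1 replicate left out, the lowest being without replicate 4. For all single-symbol probe sets above background the range was 0.26. The median shift on replicate 4 was 0.23 to 0.39 with 1 replicate left out, and 0.30 to 0.31 with quantile normalization, cyclic loess or median centring. That on replicate 1 was -0.28 to -0.11 with 1 replicate left out. The median shifts on replicates 2 and 3 were small enough to change sign, at 0.04 and 0.08 without replicate 4. Signal over background limits the interferon ligands most, of which 11 of 13 were not above the line on every array.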

Other observations

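Among the other interferon-stimulated genes above background, 15 had the letters of the response element in a promoter window and 19 had a window without them. On replicate 4 the former had a median shift of 0.20 log2 units, with 13 of 15 higher and 10 highest there, and the latter one of 0.02, with 10 of 19 higher and 6 highest. Over all genes above background, the 398 probe sets of genes with the letters had a median shift of 0.01 on that array and the 10593 without them one of -0.01. This split was chosen after the values were seen and was not tested. On replicate 1 both groups had a median shift near 0, at 0.04 and 0.05. Of the 8 chosen genes, the 4 with the letters had a median shift of 0.29 on replicate 4 and the 2 with a window without them (Ifit2 and Oasl2) one of 0.31.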
